A study of Schizosaccharomyces pombe with 21 samples.

Results

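Thiamine genes of fission yeast (*Schizosaccharomyces pombe*) were followed through 48 h of phosphate starvation. The group holds 6 of the 6988 genes listed, chosen by systematic identifier: *nmt1* (SPCC1223.02), *thi2* (SPBC26H8.01), *thi4* (SPAC23H4.10c), *thi9* (SPAC9.10), *pho4* (SPBC428.03c) and *thi1* (SPAC1486.10). They were proposed with measurements of these same samples in view, so their time courses are given as a description, with no test.

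Poly(A)+ RNA was sequenced from h- cells labelled *ecl1*∆::hygMX *ecl2*∆::natMX *ecl3*∆::kanMX, a triple deletion that the labels give for every sample, the 0 h samples included. Cells in log phase in YES, a rich medium made with yeast extract, were taken at 0 h. Further samples came from ePMGT(-PO4), a glutamate medium of known composition to which thiamine is added and from which phosphate is left out. They were taken after 4 h, 8 h and 12 h, and then after 24 h, 36 h and 48 h, each as 3 biological replicates, which made 21 samples over 7 time points. The cultures were diluted with fresh phosphate-free medium as they grew. Both media hold thiamine, since yeast extract is a natural source of it, and no sample analysed here was grown without thiamine, with phosphate in ePMGT, or with the *ecl* genes intact. Repression by thiamine is therefore not measured here, and each comparison with 0 h joins the loss of phosphate to the change of medium.

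Thiamine (vitamin B1) is built by yeasts from a pyrimidine and a thiazole that are made on separate branches and then joined. Its diphosphate is the cofactor of pyruvate decarboxylase, transketolase and the pyruvate dehydrogenase complex. Fission yeast cells that can take thiamine up from the medium shut down the genes that make and gather it. The promoter of *nmt1*, named for "no message in thiamine", is for this reason a standard switch for driving other genes in this yeast.

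The deposited tables give the authors' mean normalised count for each gene and time point, that is, reads divided by a size factor for each library and averaged over the 3 libraries. Each mean is a sum of whole reads divided by size factors, so the values of the 3 libraries could be rebuilt where 1 set of counts alone gave the printed mean, mostly below a mean of 1000. Rebuilt library values have no replicate number. The libraries held an estimated 18000000 to 26800000 counted reads. Among genes with means of 100 to 1000 the median coefficient of variation over the 3 libraries was 7.02% to 9.32% at 6 of the time points and 16.4% at 24 h, where the libraries lay farthest apart. These medians cover the genes whose libraries could be rebuilt, 84.5% of them at 0 h, 72.8% at 8 h and 96.2% to 99.9% at the other times, with each library held within 0.5 to 2 times the mean, so that genes split more widely are left out and the typical spread may be understated. The study notes that large ribosomal RNAs became fragmented as these cells starved, and the part of RNA quality in the values below was not tested. Of the genes labelled as deleted, *ecl3* had means of 0 at 0 h and at most 3.67 later. The other labelled deletions are not seen in these counts, with means over the 7 time points of 1472 to 4095 for *ecl1* and 1934 to 3191 for *ecl2*. The study's cassettes replaced the reading frames while counting was over whole exons, and whether reads of the remaining exon sequence make up these values was not tested, so the means check the label for *ecl3* only. In bulk RNA of this kind, a change in few cells and a smaller change in every cell cannot be told apart, and a level is relative to the other RNAs of the library.

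A gene was called higher or lower than at 0 h when log2(mean + 1) differed by at least 2-fold and the larger of both means was at least 100. At 4 h, 5 of the 6 genes passed that minimum and 0 were called in either direction, against backgrounds of 14.2% of all genes called higher and 13.5% called lower. At 8 h, 0 of 5 were higher (background 21.2%) and 2, *pho4* and *thi1*, were lower (background 17.1%). At 12 h, 0 of 5 were higher (background 21.8%) and 1, *pho4*, was lower (background 16.9%). From 24 h on all 6 passed the minimum, *nmt1* only through the time at which it was high. At 24 h *nmt1* was higher (background 24.3%) and *pho4* lower (background 18.5%). The same call was made for each at 36 h (backgrounds 22.6% higher and 18.5% lower) and at 48 h (backgrounds 24.2% higher and 19.7% lower). The 6 genes thus included 1 called higher, 2 called lower, of which *thi1* at 8 h only, and 3 never called, *thi2*, *thi4* and *thi9*. No background was computed for calls pooled over times. At 24, 36 and 48 h, 1 of 6 higher and 1 of 6 lower are shares near or under those of all genes, so these counts do not set the group apart. Scaled to the summed count of each time point (CPM) instead of by the authors' size factors, no member was called lower at 8 h, where *pho4* lay at −0.79 and *thi1* at −0.89 on the log2 scale.

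**Figure D1:**
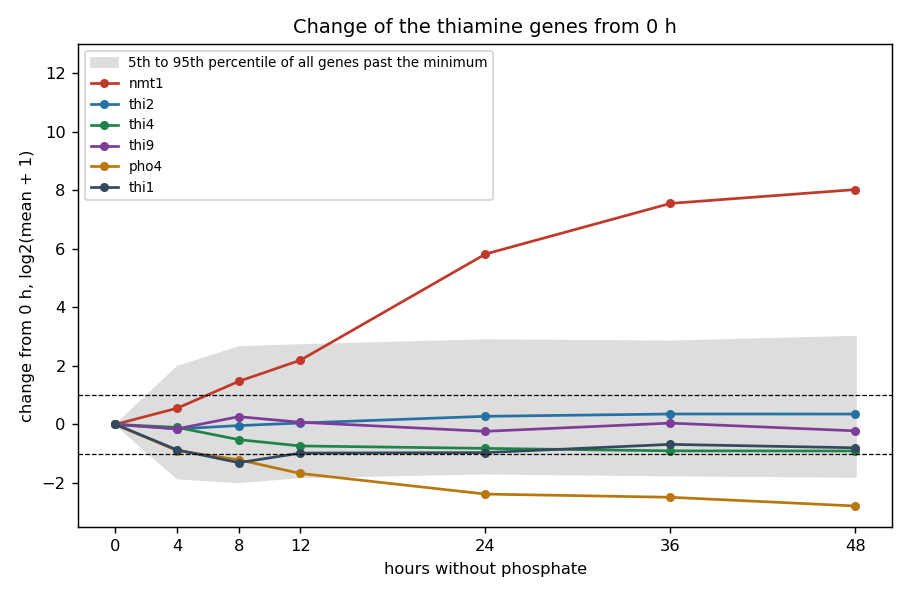
Change from 0 h of each of the 6 thiamine genes, as the difference in log2(mean + 1) of the authors' mean normalised counts, against hours without phosphate. Dashed lines mark 2-fold and the grey band spans the 5th to 95th percentile of all genes past the minimum; *nmt1* left the band at 24 h and reached 8.02, *pho4* was at −2.79 at 48 h, and the other 4 genes lay inside the band at every time.

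The pyrimidine branch is represented by *nmt1*, which encodes the enzyme that makes the hydroxymethylpyrimidine phosphate of thiamine. It was barely detected in rich medium and reached its highest level late in starvation. Its mean normalised count in the authors' tables was 18.2 at 0 h, 27.1 at 4 h, 52.0 at 8 h and 86.6 at 12 h. It then stood at 1081 at 24 h, 3593 at 36 h and 4985 at 48 h. Each time point was above the one before, and the last mean was 275-fold the first. As a share of all counted reads *nmt1* went from 0.668 to 220.2 CPM.

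The libraries at 0 h held 7, 17 and 28 *nmt1* reads. They came to normalised counts of 7.39, 17.7 and 29.4, with a mean of 18.2 ± 11.0 (SD, n = 3). The lowest of them stood apart from the highest by a ratio of 3.98, so the level at 0 h is the least certain value of the series. At 4 h the libraries were at 23.6, 26.7 and 31.0 (SD 3.70, n = 3), and their range overlapped that of 0 h. At 8 h they were at 47.1, 50.1 and 58.9 (SD 6.14, n = 3), all above the 4 h libraries. At 12 h they were at 63.7, 90.8 and 105 (SD 21.2, n = 3), all above the 8 h libraries. The early climb was therefore larger than the spread between libraries from 4 h to 8 h and from 8 h to 12 h, but not from 0 h to 4 h.

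The main step of *nmt1* fell between 12 and 24 h, when the mean became 12.5-fold larger, or 3.63 on the log2 scale. The following steps were 3.32-fold from 24 to 36 h and 1.39-fold from 36 to 48 h. At 24 h the mean of *nmt1* could be reached by 4 sets of counts near the mean, and in each of them the highest library was at least 1.61-fold the lowest. Set against single 0 h libraries, the 48 h mean was 170-fold the highest and 675-fold the lowest of them. The same figures were 36.8-fold and 146-fold at 24 h, and 122-fold and 486-fold at 36 h. The size of the change thus depends by a factor of 3.98 on the 0 h library taken as reference, while its direction from 8 h on does not.

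On the log2(mean + 1) scale the change of *nmt1* from 0 h was 0.55, 1.47, 2.19, 5.82, 7.55 and 8.02 at the successive times. At 4, 8 and 12 h its means were under the minimum of 100, so the values of 1.47 and 2.19 were not called. At 24 h 34 of 5889 genes had a change at least as large, *nmt1* included. Their number was 11 of 5815 at 36 h and 8 of 5897 at 48 h. Over the whole series, 11 of 5968 genes had a range of means as wide as that of *nmt1* or wider, itself included.

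**Figure D2:**
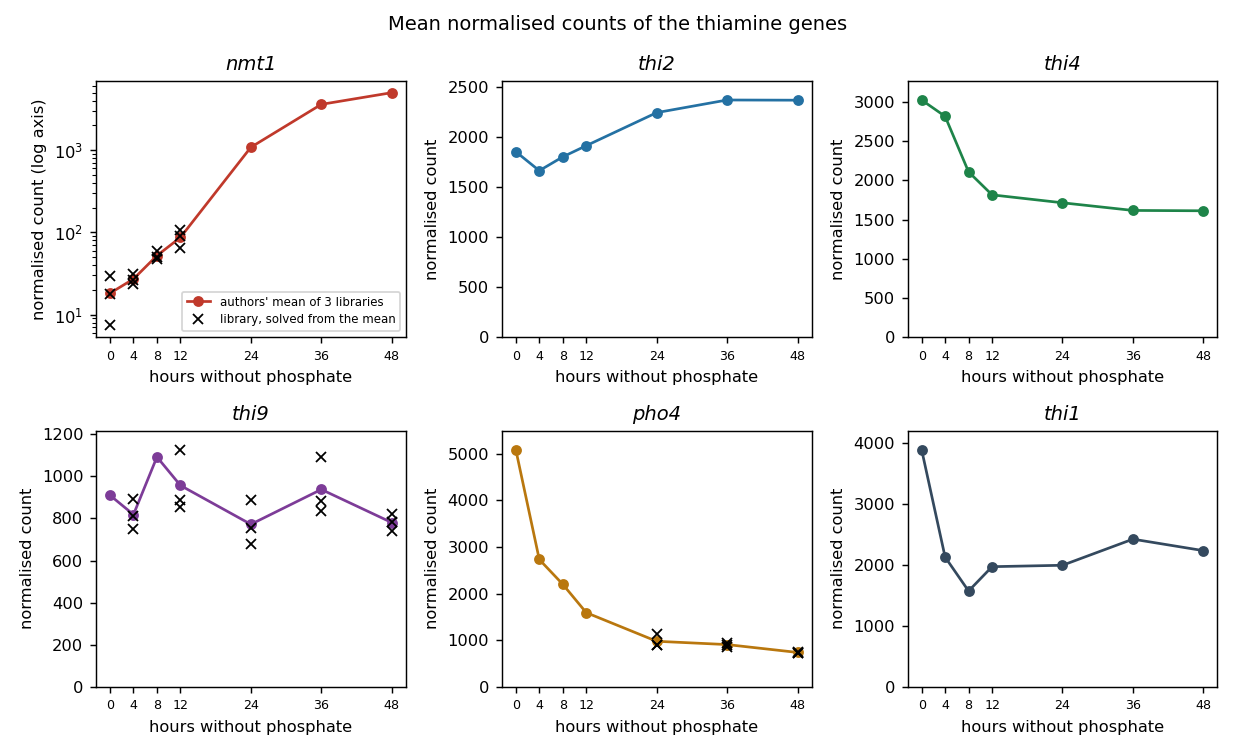
Authors' mean normalised count of each thiamine gene (circles) against hours without phosphate, with crosses for the 3 library values where a single set could be rebuilt. The axis of *nmt1* is logarithmic and the others start at 0; *nmt1* spans 18.2 to 4985, *pho4* declines from 5086 to 735, and *thi9* keeps between 772 and 1092.

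The thiazole branch is represented by *thi2*, which encodes the enzyme that makes the thiazole of thiamine. Its authors' means were 1855 at 0 h, 1665 at 4 h, 1803 at 8 h and 1915 at 12 h. They were 2246 at 24 h, 2372 at 36 h and 2370.4 at 48 h, so that the highest was 1.42-fold the lowest. Changes from 0 h ran from −0.16 to 0.35 on the log2 scale and were never called. No step between neighbouring times exceeded the typical ratio between libraries at those times. This is the ratio of highest to lowest library for the median gene with a mean of 100 to 1000. It was 1.14 to 1.37 over the 7 time points. The ratio rests on single libraries of other genes, so a step within it need not lie within a member's own spread. Scaled to CPM the change of *thi2* was 0.04 at 4 h and 0.38 at 8 h, against −0.16 and −0.04 with the authors' size factors, so the direction at these 2 times depends on the scaling. The branch enzymes *nmt1* and *thi2* therefore both had their highest values late, with a Pearson correlation of 0.96 over the 7 log2(mean + 1) values, at very unequal sizes of change. These 7 points share the same libraries, and the correlation is a description.

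The joining step is carried out by the product of *thi4*, a bifunctional enzyme that phosphorylates hydroxyethylthiazole and couples the thiazole to the pyrimidine in thiamine phosphate. Its authors' means were 3028 at 0 h, 2819.5 at 4 h, 2109.5 at 8 h and 1816 at 12 h. They were 1715 at 24 h, 1617 at 36 h and 1613 at 48 h, or 53.2% of the 0 h mean. The step from 4 to 8 h was 1.34-fold, larger than the typical ratio between libraries of 1.19 at those times, while the other 5 steps were within that measure. The change from 0 h reached −0.91 on the log2 scale at 48 h and stayed just inside the 2-fold line. Under CPM it was 0.10 at 4 h, against −0.10, and −0.65 at 48 h. The enzyme of the pyrimidine branch and the joining enzyme thus lay on opposite sides of their 0 h levels from 8 h on, with a correlation of −0.87 over the 7 time points.

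Uptake was followed through *thi9*, which encodes a high affinity plasma membrane transporter that brings thiamine in together with protons. Its authors' means were 910.2, 818, 1092, 957, 772, 938 and 781 from 0 to 48 h, without a lasting direction. The 0 h mean could be reached by 2 sets of counts near the mean, and in both the highest library was at least 1.52-fold the lowest. The libraries were at 752, 811 and 893 at 4 h (SD 71.0, n = 3) and at 855, 889 and 1127 at 12 h (SD 148, n = 3). They were at 677, 753 and 886 at 24 h (SD 106, n = 3), overlapping those of 12 h. At 36 h they were at 835, 885 and 1094 (SD 138, n = 3), overlapping those of 24 h. At 48 h they were at 740.1, 782 and 820 (SD 39.7, n = 3), all below the 36 h libraries. The 8 h mean, whose libraries could not be rebuilt, was 1.33-fold that at 4 h, more than the typical ratio between libraries of 1.19. Changes from 0 h ran from −0.24 to 0.26 on the log2 scale, were never called, and changed sign at 4, 24 and 48 h when scaled to CPM.

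The phosphatase of the group is *pho4*, which encodes a thiamine-repressible acid phosphatase at the cell surface and is unrelated to the transcription factor of the same name in budding yeast. Its mean declined at every step. The authors' means were 5086 at 0 h, 2730.0 at 4 h, 2198 at 8 h and 1589 at 12 h, and then 975 at 24 h, 904 at 36 h and 735 at 48 h. The 0 h mean was thus 1.86-fold that at 4 h and 6.92-fold that at 48 h. The libraries were at 899, 903 and 1122 at 24 h (SD 127, n = 3), at 859, 905 and 948 at 36 h (SD 44.6, n = 3) and at 719, 733 and 753 at 48 h (SD 17.3, n = 3). Those of 24 and 36 h overlapped, and those of 48 h were all below them. The steps from 0 to 4 h, from 4 to 8 h, from 8 to 12 h and from 12 to 24 h were 1.86-, 1.24-, 1.38- and 1.63-fold, each larger than the typical ratio between libraries. At 8 h, however, every set of counts near the mean had a highest library at least 1.23-fold the lowest. The step of 1.24-fold from 4 to 8 h is close to that lower limit, so the order of these neighbours is uncertain.

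On the log2 scale the change of *pho4* was −0.90, −1.21, −1.68, −2.38, −2.49 and −2.79 at the successive times. At 4 h 15.4% of the genes past the minimum had a change as low or lower, and at 48 h 0.763% did. *pho4* and *nmt1*, both described as repressed by thiamine, moved apart, and the correlation of their log2 levels over the 7 time points was −0.94. Under CPM *pho4* was at −2.53 at 48 h and *nmt1* at 8.27.

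The regulator of the group is *thi1*, which encodes a zinc finger transcription factor known to activate thiamine genes when thiamine is short. Its authors' means were 3895 at 0 h, 2129.8 at 4 h and 1572 at 8 h, and thereafter 1972 at 12 h, 1995 at 24 h, 2425 at 36 h and 2236 at 48 h. The gene had its lowest mean at 8 h, where the 0 h mean was 2.48-fold higher and the change was −1.31 on the log2 scale. At the other times the change lay between −0.98 and −0.68 and was not called. The steps of 1.83-fold from 0 to 4 h and 1.35-fold from 4 to 8 h exceeded the typical ratio between libraries. From 8 to 12 h the step was 1.25-fold, and at 8 h every set of counts near the mean had a highest library at least 1.28-fold the lowest, so that these neighbours cannot be ordered. The step of 1.35-fold from 4 to 8 h is not far above that lower limit, so the order of 4 and 8 h is uncertain as well. The steps after 12 h were within the typical ratio. The RNA of *thi1* was at 57.4% of its 0 h level at 48 h, when *nmt1* was at its highest. The correlation of the 2 genes over the 7 time points was −0.15. Protein and activity of the factor were not measured, and its part in the level of *nmt1* was not tested.

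The members did not share 1 pattern. Of their 15 pairs, the strongest positive correlations of log2 levels were *nmt1* with *thi2* at 0.96 and *thi4* with *pho4* at 0.95, and the strongest negative one was *nmt1* with *pho4*. *thi1* correlated at most 0.47 with any other member, with *thi4*.

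A further 9 genes of thiamine synthesis, transport and control were taken from RefSeq names and product names. All 9 passed the minimum at every time. Of these, 1 was called higher and 0 lower at 4 h, and 1 and 1 at 8 h. At 12, 24 and 36 h 2 were higher and 1 was lower, and at 48 h 1 and 1. These shares are near or under the backgrounds of 14.2% to 24.3% of all genes higher and 13.5% to 19.7% lower. The median change of the 9 was 0.07 at 4 h, 0.22 at 12 h and −0.13 at 48 h on the log2 scale, against medians over all genes of −0.01, −0.03 and −0.05. With changes taken relative to the median protein-coding gene, 0 of the 9 were lower at 12, 24 and 36 h.

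The gene of this list called higher at all 6 times was SPCC794.03, annotated as a thiamine transporter. Its authors' mean was 108 at 0 h, 419.9 at 4 h and 1042 at 24 h, with changes of 1.96 to 3.26 on the log2 scale. It stood higher already at 4 h, when the change of *nmt1* was 0.55 and that of the transporter *thi9* was −0.15. SPBC530.07c, of the TENA/THI family, averaged 1195 at 0 h, against 2991 at 24 h and was called higher at 12, 24 and 36 h.

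The genes called lower were those of the pyrimidine kinase family. *thi20*, for a phosphomethylpyrimidine kinase, averaged 3603 at 0 h, against 1580.2 at 8 h and was lower at 8, 12 and 24 h. Its neighbour in name *thi201* averaged 1819 at 0 h, against 660.4 at 48 h and was lower at 36 and 48 h. Reads of related kinases could be shared, so their values are less certain than those of single-copy genes. SPCC18B5.05c, annotated with the same activity, was not called at any time and had its largest change of 0.92 at 4 h. The remaining genes were not called either. They were *tnr3* for thiamine diphosphokinase (−0.46 to 0.07), *thi7* for a transporter (−0.13 to 0.67), *thi5* for a DNA-binding transcription factor (0.06 to 0.46) and SPBC1604.04 for a thiamine pyrophosphate transporter (−0.89 to 0.10).

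**Figure D3:**
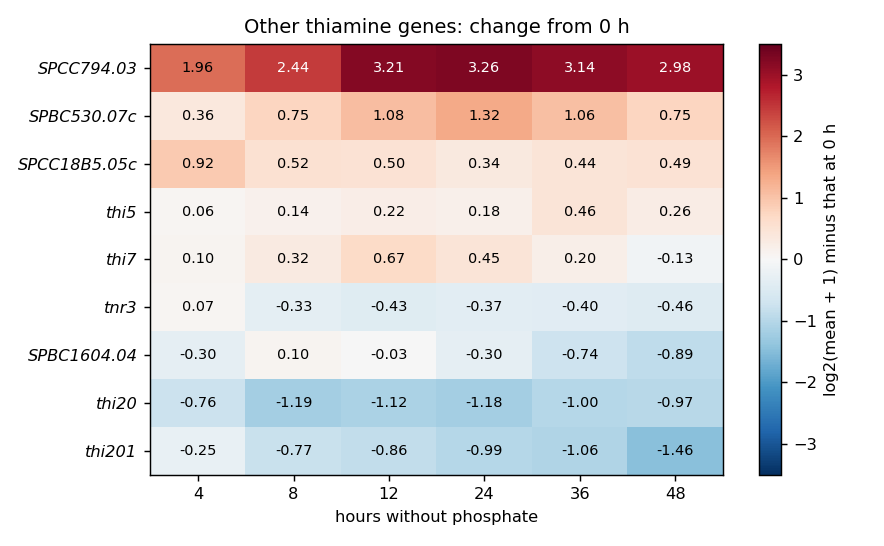
Change from 0 h of the 9 further thiamine genes, as the difference in log2(mean + 1) printed in each cell, by hours without phosphate; red is higher and blue is lower than at 0 h. SPCC794.03 is at 1.96 to 3.26 at every time, while *thi20* and *thi201* lie at or below −0.25 throughout.

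The enzymes that use thiamine diphosphate included 11 genes, of which 10 passed the minimum. At each of the 6 times 2 were called higher, and 2, 4, 3, 3, 4 and 4 were called lower at the successive times. The share called higher is close to the backgrounds of 14.2% to 24.3%, and the backgrounds for lower calls were 13.5%, 17.1%, 16.9%, 18.5%, 18.5% and 19.7%. The median change of those past the minimum was 0.19 at 4 h and −0.70 at 48 h. Both genes called higher encode pyruvate decarboxylases, which turn pyruvate into acetaldehyde. *pdc201* had an authors' mean of 164 at 0 h, 5568 at 4 h and 73927 at 48 h, a change of 8.81 on the log2 scale, and *pdc202* went from 185 to 996. The other pyruvate decarboxylase past the minimum, *pdc101*, averaged 189196 at 0 h, against 99195 at 48 h and was not called (−0.93 to 0.16 on the log2 scale). The remaining one, *pdc102*, had means of at most 11.8, under the minimum. Reads shared between these related genes are a limit on their single values.

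Genes called lower were *ilv1* and *ilv6*, the catalytic and regulatory subunits of acetolactate synthase, and *pda1* and *pdb1*, subunits of the E1 component of pyruvate dehydrogenase. *ilv1* was lower at all 6 times, with means of 21099 at 0 h and 4850.4 at 48 h. *ilv6* and *pdb1* were lower at 5 times each and *pda1* at 4. *ilv6* is on the list by its product name, and the cofactor is bound by the catalytic subunit. The genes not called were *tkt1* for transketolase (−0.59 to 0.23), *hac1* for a lyase of 2-hydroxyacyl-CoA (−0.18 to 0.55) and *kgd1* for the E1 subunit of 2-oxoglutarate dehydrogenase (0.41 to 0.59). Relative to the median protein-coding gene, 2, 1, 2, 2 and 3 of these enzymes were lower at 8, 12, 24, 36 and 48 h.

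Pyridoxal phosphate, the active form of vitamin B6, supplies atoms of the thiamine pyrimidine in budding yeast. Of 13 vitamin B6 genes, 3 were higher and 1 lower at 4 h, against backgrounds of 14.2% and 13.5%. At 48 h 3 were higher and 2 lower, near the backgrounds of 24.2% and 19.7%. *plr1*, for pyridoxal reductase, averaged 7551 at 0 h, against 34441 at 4 h. *akr7*, for a reductase of the same name, went from 37.0 to 469, and SPBC725.03, annotated as pyridoxamine phosphate oxidase, from 544 to 4471. These 3 were higher at all 6 times, whereas the importer *bsu1* was higher at 24 and 36 h only, at 1162 and 1282 from 551. *snz1*, which encodes the pyridoxal phosphate synthase, averaged 24203 at 0 h, against 6899.5 at 48 h and was lower at 5 times. The transporter SPCC576.17c was lower at all 6, with means of 427 at 0 h and 100.1 at 48 h. The other 7 vitamin B6 genes were not called, with changes of −0.85 to 0.47 on the log2 scale.

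Acid phosphatases other than *pho4* were compared because phosphate starvation is known to induce *pho1*, the cell surface acid phosphatase of the phosphate regulon. The authors' mean of *pho1* was 39182 at 0 h, 331335 at 4 h, 529736 at 12 h and 274644 at 48 h, so that it was higher at all 6 times by 2.81 to 3.76 on the log2 scale. At the same times *pho4* was between −0.90 and −2.79, on the other side of 0. Of the other 3 genes with this word in the product name, SPBC409.18 was higher at 8 and 12 h, with means of 2261 at 0 h and 5558 at 8 h. It encodes a phosphatidic acid phosphatase, an enzyme of lipid metabolism. SPBC4.06 (−0.05 to 0.93) and SPBP8B7.31 (−0.80 to −0.68) were not called.

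The 3 protein-coding genes closest to each member were sought by Pearson correlation of log2(mean + 1) over the 7 time points, among 2706 genes with a mean of at least 100 and at least a 2-fold range. For *nmt1* they were *ckb2*, a regulatory subunit of protein kinase CK2 (r = 1.00), *rlc1*, a myosin light chain (0.99), and *pfl4*, a flocculin (0.99). Their last means were 7490.2, 3571 and 13476 from 1721, 1546 and 954 at 0 h, so their changes were smaller than that of *nmt1*. For *pho4* they were *emp24*, a protein of secretory vesicles, *lsh1* and the nucleoporin gene *pom152* (0.99 to 1.00). For *thi4* they were *mti2* and *rcf1*, for a mitochondrial translation factor and a cytochrome oxidase subunit, and *cym1*, a metalloendopeptidase gene (0.99 to 1.00). For *thi1* they were SPBC3F6.01c, *mpd2* and *pro1* (0.99). For *thi2* they were *uaf2*, *pit1* and *mis20* (0.99), and for *thi9* *arv1*, *ppk33* and *map3* with values of 0.66 to 0.68. None of the 18 was a thiamine gene of the list above. With 7 points and 2706 genes, high values are common, and they are given as a description.

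Annotated RNAs beside the members were examined because no source says whether counting used strand. How reads were counted where a gene overlaps an RNA on the other strand is therefore not known. *nmt1* is overlapped on the other strand by SPNCRNA.1234, whose authors' means were 804 at 0 h, 784 at 24 h and 1049 at 48 h. That RNA was near its 0 h level at 24 h, when *nmt1* had become 59.6-fold higher, and stood above it at 36 h, at 1012, and at 48 h. Its part in the values of *nmt1* was not tested. SPNCRNA.1235, downstream on the same strand, went from 569.8 to 232. *thi4* is overlapped by *cdb4*, for a protein of the peptidase family, with means of 14040.3 at 0 h, 3148 at 4 h and 2233 at 48 h. The means of *thi4* over the same times were 3028, 2819.5 and 1613, so the decline of *cdb4* came first, and its part in the values of *thi4* was not tested. *thi9* is overlapped by SPNCRNA.743, which went from 133 to 658 while *thi9* kept near its 0 h level. *pho4* is overlapped by SPNCRNA.1358, at 366 to 709, and followed on the same strand by SPNCRNA.1359, which went from 101 to 34.9. Beyond *thi2* lies *sec9*, at 3151 at 0 h and 7658 at 48 h, and beyond *thi1* lies *tea3*, at 3174 at 0 h, 1107 at 8 h and 1389.8 at 48 h, each on the other strand.

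**Figure D4:**
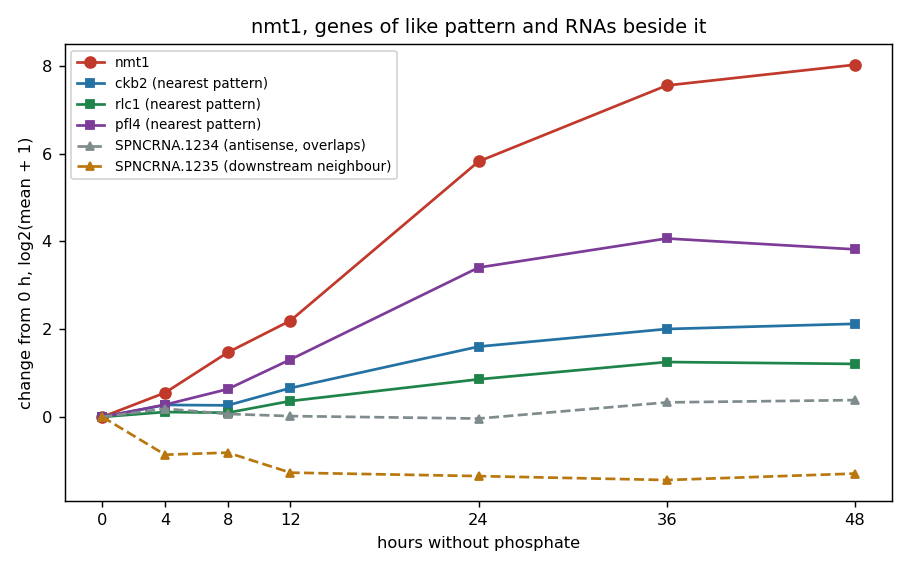
Change from 0 h in log2(mean + 1) of *nmt1*, of the 3 protein-coding genes of most similar pattern and of the 2 annotated RNAs beside it, against hours without phosphate. *nmt1* reaches 8.02 at 48 h, the overlapping antisense RNA SPNCRNA.1234 is at 0.38 and the downstream RNA SPNCRNA.1235 is at −1.29.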

How the data were processed

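RNA-seq was carried out on poly(A)+ RNA from 21 samples labelled *ecl123*∆, with 3 biological replicates at each of 7 time points, grouped by their labels. Libraries were strand-specific and read in paired-end mode. The submitters' notes name HISAT2 2.1.0 for mapping and HTSeq 0.10.0 for counting over PomBase exons of build ASM294v2. The authors deposited 1 table per starvation time, whose signal columns hold the mean normalised count at 0 h and at that time, from DESeq2. The other columns hold a mean over their whole fit and the authors' own comparison with 0 h (fold change, standard error, statistic and p-values), and were not used.

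Changes were computed as differences in log2(mean + 1), and a gene was called at 2-fold with a larger mean of at least 100. The fold and the minimum follow the study. The study also set a limit on the adjusted p-value and required a change at consecutive time points, and neither was applied here. A planned limma fit on library values was replaced by the 2-fold rule with no test, because library values could be rebuilt for means under 1000 only. To rebuild them, the 3 size factors of a time point were read from the smallest steps between low means, and 3 whole counts that give the printed mean were sought, each library within 0.5 to 2 times the mean, or at any split for means under 100. All low means were whole reads within 1e-06. Tested on simulated data, 100%, 100%, 99.8% and 79.0% of means of 10 to 100, 100 to 300, 300 to 600 and 600 to 1000 were solved, and 0 were solved wrongly. The simulated libraries all had 1 small spread, so sets outside the window were hardly ever drawn. The test therefore cannot say how often a true set outside the window is replaced by a false one inside it. For *thi9* at 4 and 12 h and *pho4* at 24 h, other sets exist in which a library lies outside that window.

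Python 3.11.15, numpy 2.4.6, pandas 2.3.3, numba 0.67.0 and matplotlib 3.10.9 were used. RefSeq (ASM294v3) gave names and products for 6836 genes through their locus tag and for 12 through a synonym, and 140 had no match. Since ASM294v3 is another build, it served only for names and for which genes neighbour each other. The members and gene lists were chosen with earlier results of these data known. The genes named are the 6 members, the 3 protein-coding genes nearest each in pattern, and, in each list, genes called at 2 or more times, else those with the largest change; other list genes are given by range. *kgd1* was added to its list after its RefSeq product name was read.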

Additional observations from a re-analysis of the deposited data

How the results depend on the processing

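Calls of the 6 members depended on the processing at 2 times only among the alternatives tried. With no minimum on the mean, 1 member (*nmt1*) was higher at 8 h and 1 at 12 h, and scaled to CPM 0 were lower at 8 h. Pseudocounts of 0.5 and 5 and leaving out any 1 library that could be rebuilt changed no count by more than 1.5 times. Without 1 of the libraries in turn, the change of *nmt1* ranged from 0.19 to 1.05 at 4 h, 1.11 to 1.97 at 8 h, 1.84 to 2.70 at 12 h, 5.46 to 6.32 at 24 h, 7.19 to 8.05 at 36 h and 7.67 to 8.53 at 48 h on the log2 scale. Libraries at a mean above 1000 could not be left out, those of 0 h included. This held for *thi1* at every time and for *pho4* before 24 h. The lower calls at 8 and 12 h therefore could not change when a library was left out. It also held for *nmt1* at 24, 36 and 48 h. Its ranges at those times come from leaving out libraries of 0 h only, and do not cover the spread of the later libraries.

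Centred on the median protein-coding gene, acid phosphatases called higher numbered 2 at 4, 24, 36 and 48 h, and the further thiamine genes called lower numbered 0 at 12, 24 and 36 h. Under the same setting thiamine diphosphate enzymes called lower numbered 2 at 8 h, 1 at 12 h, 2 at 24 and 36 h, and 3 at 48 h. Vitamin B6 genes called lower numbered 0 at 4 h and 1 at 8 h, and those called higher numbered 4 in place of 3 at 12 and 48 h. Centring raised every change by 0.04 to 0.24 and CPM raised the median by 0.20 to 0.42. Single-gene changes moved by more than the SD between libraries in 49 cases and by less in 95, apart from those that left out a library. All 49 came from CPM or centring, and every change of pseudocount is among the 95. Where the libraries of a gene could not be rebuilt at a time, the median SD of other genes stood in for its own. The planned limma fit and its filter alternatives were not run as tests. No paired analysis was possible because the columns carry no replicate numbers.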

Other observations

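The measurements leave limits. Only means were used for most values, so the spread of *thi2*, *thi4* and *thi1*, and of *pho4* before 24 h and *nmt1* from 24 h on, is known only through other genes or as a lower limit. At 0 h *nmt1* rests on 52 reads over 3 libraries. The cultures had no thiamine-free, phosphate-replete or *ecl*+ counterpart among the samples analysed here, and what *nmt1*, *pho4* and *thi1* would show in those conditions was not measured. The concentration of thiamine in the medium at each time was not measured either.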
